A study of Homo sapiens with 12 samples.

Results

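The nuclear genes of respiratory complexes II to V were followed in MDA-MB-231 cells, a human breast cancer line of mesenchymal, triple-negative type, with and without RIPOR3 knockdown and with and without hypoxia. Members were chosen by symbol alone: SDHA to SDHD for complex II, symbols beginning UQCR for complex III, COX4 to COX8 for complex IV and ATP5 for complex V, leaving out names that end in P and a number. Of 24641 gene symbols with counts, 44 met the rule, with 4 genes of complex II, 9 of complex III, 14 of complex IV and 17 of complex V. Enough reads for testing were found for 41 of these 44, among 15648 genes tested. COX6B2 (6 reads in all 12 libraries together), ATP5L2 (14 reads) and COX7A1 (43 reads) were not tested. COX4I2 and the mitochondrially encoded subunits were not analysed here.

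Messenger RNA was sequenced from 4 groups with 3 libraries each. Normoxia shControl and normoxia shRIPOR3 cells carried a control or a RIPOR3 hairpin, and hypoxia shControl and hypoxia shRIPOR3 cells carried the same hairpins and were kept at 1% O2 for 24 h. All groups were the same parental line, the control cells were labelled WT, and the hairpin sequence, the number of clones and the oxygen level of normoxia were not given in the sources used here. Nothing in the labels says whether the numbered libraries of a group are separate cultures, and p-values then reflect only the spread between these libraries, which may be technical.

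Complexes II to IV of the inner mitochondrial membrane pass electrons from succinate and from reduced ubiquinone to cytochrome c and then to oxygen, and complexes III and IV pump protons as they do so. Complex V, the ATP synthase, lets protons back through a rotating ring of c subunits and makes ATP in its F1 head. Complex II is the only one of these built from nuclear genes alone, since complexes III, IV and V each also hold subunits made inside the mitochondrion. Low oxygen is known to lower respiration in many cell types, in part through exchange of complex IV isoforms and through removal of mitochondria by receptors such as BNIP3.

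Promoters were read from RefSeq (GRCh38.p14) because most of the members moved together, and 33 of 44 members had a window of 250 bases before to 50 bases after a transcript start. The 32 tested members among them had 38 windows. The letters GCGCATGC, a core of the site bound by NRF1, a regulator of respiratory genes, stood on either strand in 23.7% of the members' windows and in 3.05% of all 35116 windows. The letters CCGGAAG, a core of sites for ETS factors such as GABPA, stood in 42.1% of them and in 10.3% of all windows. For ATGGCGG, a YY1 core, the shares were 18.4% and 5.55%. The hypoxia-response cores ACGTG and GCGTG stood in 23.7% and 47.4% of the members' windows, against 21.4% and 36.5% of all windows. These are matches of letters and not measured sites, windows of 1 gene can overlap, and GCGTG can share bases with GCGCATGC. The members' windows belong to tested genes, while all windows include genes not tested here. Shares over tested genes alone were not taken, so the 2 sets are unlike. The stretches before the first annotated start are shown for 3 members with NRF1 or ETS letters. They are also shown for 2 members, ATP5G1 and COX7C, with none of the NRF1, ETS or YY1 letters. The ATP5G1 window held ACGTG beyond the stretch shown. Capitals mark the NRF1 and ETS matches on either strand.
COX5B (chr2:97645812-97646039, plus strand): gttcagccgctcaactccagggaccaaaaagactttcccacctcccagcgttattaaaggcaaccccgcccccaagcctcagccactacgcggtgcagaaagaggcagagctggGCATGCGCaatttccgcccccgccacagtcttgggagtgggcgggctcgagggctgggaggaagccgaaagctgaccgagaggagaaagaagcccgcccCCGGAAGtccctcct
COX6A1 (chr12:120437863-120438089, plus strand): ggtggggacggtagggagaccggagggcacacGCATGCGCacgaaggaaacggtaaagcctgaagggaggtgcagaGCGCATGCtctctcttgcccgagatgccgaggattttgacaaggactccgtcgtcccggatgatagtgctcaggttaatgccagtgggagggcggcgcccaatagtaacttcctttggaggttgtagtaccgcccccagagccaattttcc
ATP5H (chr17:75046986-75047219, minus strand): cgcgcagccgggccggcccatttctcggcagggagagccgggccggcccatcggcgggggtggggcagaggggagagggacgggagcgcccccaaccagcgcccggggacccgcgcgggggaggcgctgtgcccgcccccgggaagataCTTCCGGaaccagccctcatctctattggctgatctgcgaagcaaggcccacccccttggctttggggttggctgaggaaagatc
ATP5G1 (chr17:48892537-48892764, plus strand): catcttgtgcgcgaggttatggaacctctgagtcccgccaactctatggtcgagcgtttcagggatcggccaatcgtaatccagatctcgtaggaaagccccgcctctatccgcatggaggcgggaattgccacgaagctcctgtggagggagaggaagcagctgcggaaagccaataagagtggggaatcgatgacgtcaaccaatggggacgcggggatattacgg
COX7C (chr5:86617691-86617903, plus strand): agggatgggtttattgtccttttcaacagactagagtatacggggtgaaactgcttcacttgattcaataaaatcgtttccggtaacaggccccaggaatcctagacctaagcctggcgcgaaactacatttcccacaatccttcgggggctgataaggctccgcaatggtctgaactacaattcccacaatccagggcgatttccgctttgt
In the COX5B and COX6A1 stretches the first capitals are the NRF1 letters on the opposite strand, and in ATP5H the ETS letters are on the opposite strand.

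Normoxia libraries held 14750734 to 30032858 assigned reads and hypoxia libraries 31781324 to 52526813, a difference in depth that followed oxygen. Levels are given as CPM, counts scaled to a library total of 1000000 reads after trimmed-mean (TMM) adjustment. RIPOR3, the targeted gene, had 7, 3 and 7 reads in normoxia shControl, 0, 0 and 1 in normoxia shRIPOR3, 33, 18 and 30 in hypoxia shControl, and 9, 3 and 11 in hypoxia shRIPOR3. Its reads were few in all libraries. They are not scaled for depth, so they do not compare oxygen levels, and no test of them is given here. The 6 mesenchymal markers of this line summed to between 1740 and 3540 CPM per library, while 6 luminal markers summed to at most 8.12 CPM. Of the 5 blood and endothelial markers, PTPRC, CD3E and CD68 stayed under 0.2 CPM in every library; the sum was 7.28 to 8.3 CPM in normoxia shControl, 2.47 to 3.01 in normoxia shRIPOR3, 12.9 to 13.8 in hypoxia shControl and 3.46 to 4.29 in hypoxia shRIPOR3. Of the 4 fibroblast markers DCN and LUM also stayed under 0.2 CPM, and the sums were 5.62 to 7.51, 3.44 to 5.17, 10.6 to 11.8 and 6.63 to 7.22 CPM in the same order. The first sum was thus nearly all PECAM1 and CDH5, and the second nearly all COL1A1 and PDGFRB. In hypoxia with the control hairpin PECAM1 did not pass the edgeR test (-0.15 on the log2 scale, adjusted p = 0.242), while CDH5 rose by 1.87. On knockdown COL1A1 did not pass at either oxygen level (adjusted p = 0.141 and 0.201), while PDGFRB fell by 0.72 and 1.10. These sums moved with both hairpin and oxygen through few genes, and their part in the results was not tested. In bulk RNA, fewer cells of a type and less RNA per cell cannot be told apart.

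Members differed widely in level. Per kilobase of transcript, COX4I1, the large regulatory nuclear subunit of complex IV, was the most abundant in normoxia shControl cells at 1510 CPM per kb, followed by COX7C of the same complex at 958 CPM per kb. The highest in complex III was UQCRQ, a small subunit, at 643 CPM per kb. Among the tested genes of complex V the catalytic beta subunit ATP5B was highest at 247 CPM per kb and ATP5S lowest at 2.65. Complex II spanned 1.81 CPM per kb for SDHC to 39.6 for SDHB. The SDHC value rests on a long reference transcript (13566 bases), as do those of ATP5A1 (5818), UQCRB (5575), ATP5E (3665) and ATP5F1 (3156). Order and median per kilobase therefore depend on the transcripts taken. In plain CPM ATP5B was also the highest of complex V, at 455 CPM, before ATP5A1 at 320 and ATP5E at 303. The median over the 41 tested members was 48.3 CPM per kb.

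Several members, low and high, carried a limit from their position in the genome. In GENCODE 29, 11 of 44 members shared exon bases on 1 strand with another gene. A gene annotated as protein-coding overlapped COX8A, COX6A1, UQCR11, ATP5O, ATP5L, ATP5J2, SDHD and the untested COX6B2. In normoxia shControl the tested ones stood at 3.04 (COX8A), 12.8 (COX6A1), 6.54 (UQCR11), 6.78 (ATP5O), 10.9 (ATP5L), 15.6 (ATP5J2) and 34.5 CPM (SDHD). The others were COX7C (638 CPM), ATP5G2 (52 CPM) and ATP5G3 (49.5 CPM), overlapped by a small RNA gene or a pseudogene. Named pseudogenes were annotated for 27 of 44 members, with 17 pseudogenes for COX6C, 7 each for COX6B1, ATP5A1, ATP5F1 and ATP5G1, and 3 for SDHA. How the authors' counting treated reads that fit more than 1 gene was not given in the sources used here, so the levels of these genes are uncertain.

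The isoforms most abundant in these cells were the ubiquitous ones. COX7A1, the muscle isoform of subunit VIIa, was at 0.195 ± 0.0864 CPM (SD, n = 3) in normoxia shControl, with 5, 4 and 3 reads. COX7A2, the liver-type isoform, stood at 171 CPM per kb there against 0.256 for COX7A1. COX6B1, which helps to hold complex IV dimers together, stood at 43.7, 51.6 and 44.9 CPM, and the testis isoform COX6B2 had 0 reads in the 6 normoxia libraries. COX6A1, the ubiquitous isoform of subunit VIa, stood at 13.2, 13 and 12.3 CPM. The testis isoform COX7B2 was detected at 6.13, 7.08 and 5.35 CPM, or 11.4 CPM per kb, beside 61.5, 70.8 and 70.8 CPM, or 152 CPM per kb, for COX7B. The 3 genes for the identical mature c subunit, ATP5G1, ATP5G2 and ATP5G3, stood at 56.6, 52 and 49.5 CPM, or 92.1, 29 and 9.02 CPM per kb, so the order was the same on both scales and the wide gaps per kilobase came with the differing lengths of the reference transcripts.

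Added over all 44 members, the level was 6016 ± 49.2 CPM (SD, n = 3) in normoxia shControl, 6725 ± 152 in normoxia shRIPOR3, 4074 ± 116 in hypoxia shControl and 4677 ± 114 in hypoxia shRIPOR3. The summed level was thus 32.3% lower in hypoxia with the control hairpin and 30.5% lower with the RIPOR3 hairpin. It was 11.8% higher on knockdown in normoxia and 14.8% higher in hypoxia. The libraries of the 4 groups did not overlap in this sum. Complex IV gave the largest part, 2890 CPM in normoxia shControl, followed by complex V with 1877, complex III with 1140 and complex II with 109.3.

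**Figure D1:**
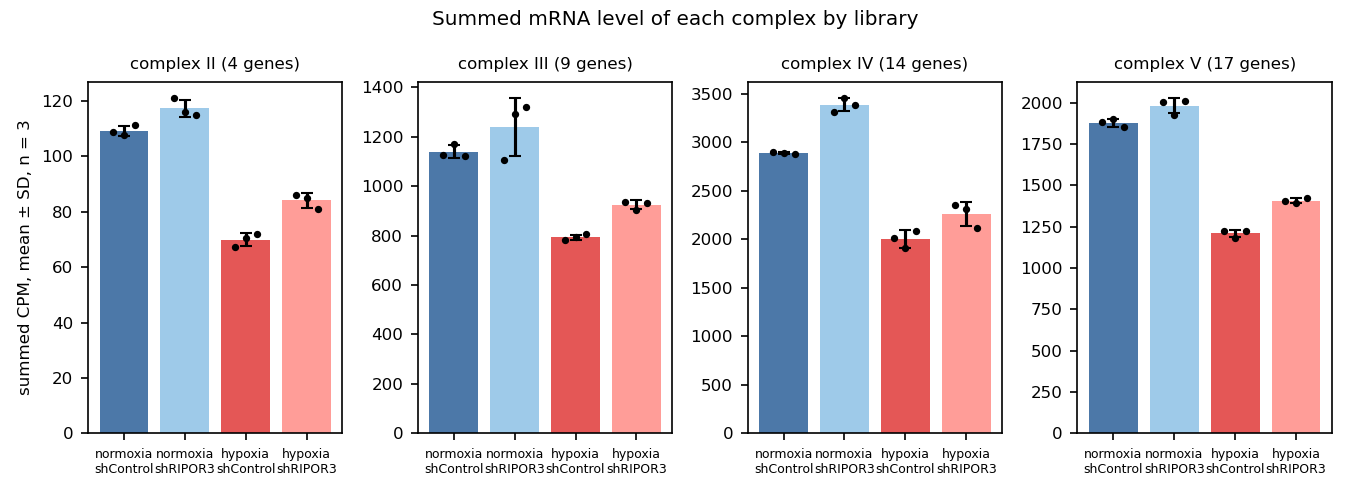
Summed level of the nuclear genes of each complex in CPM ( vertical axes starting at 0) in the 4 groups. Bars are means of 3 libraries with their SD and points are libraries; in each complex hypoxia shControl has the lowest bar and normoxia shRIPOR3 the highest.

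This order was shared by most single genes. Means ran from normoxia shRIPOR3 through normoxia shControl and hypoxia shRIPOR3 down to hypoxia shControl in 30 of 41 tested members and in 13.8% of all tested genes. Hypoxia shControl was the lowest of the 4 means in 37 members, the exceptions being ATP5S, COX6C, COX7B2 and UQCRB; it was the lowest in 31.9% of all tested genes. Both normoxia means lay above both hypoxia means in 38 members and in 26.5% of all genes. ATP5S, COX5A and COX8A were the exceptions.

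The first comparison asked what hypoxia did in cells with the control hairpin. Of the 41 tested members 38 fell, 1 rose and 2, SDHA and COX8A, did not pass. The median change was -0.54 on the log2 scale. Over all tested genes 32.4% were called lower and 32.4% higher (edgeR quasi-likelihood test, Benjamini-Hochberg adjusted p under 0.05), with a median of 0.02. The libraries of the 2 groups did not overlap in 40 members, all lower in hypoxia, against 33.1% of all genes lower without overlap. No member reached a 2-fold change: the folds ran from -0.92 to 0.37 on the log2 scale. Abundant genes fell more often, since among the 2086 genes over 100 CPM 61.5% were called lower, with a median of -0.22. Members were counted at all levels and most lay under 100 CPM. Shares over 100 CPM, here and in the later comparisons, are therefore of an unlike set.

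Within complex II, SDHB fell most. SDHB carries the iron-sulfur clusters that lead electrons from the flavin to ubiquinone, and its gene lies on chromosome 1 (GRCh38, 17018722 to 17054170, minus strand). It stood at 46.9, 41.9 and 48.4 CPM in normoxia shControl and at 27.2, 27 and 28.2 in hypoxia shControl, a log2 fold change of -0.75 ± 0.05 (SE, adjusted p = 3.35e-12). The 3 hypoxic values lay far below all normoxic ones. The membrane anchors SDHD and SDHC help to form the ubiquinone site. SDHD went from 33.7, 35.6 and 34.1 CPM to 21, 21.6 and 22 CPM, a fall of 0.68 on the log2 scale (adjusted p = 3.16e-10). SDHC went from 23.6, 25.5 and 24.5 CPM to 14.9, 17.9 and 17.7 CPM, a fall of 0.54 (adjusted p = 5.22e-07). Neither anchor overlapped between the groups. SDHA, the flavoprotein that oxidises succinate, was at 4.6 ± 0.249 CPM in normoxia and 4.05 ± 0.165 in hypoxia, and its change of -0.17 ± 0.126 did not pass the test (adjusted p = 0.242).

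All 9 tested genes of complex III fell, with a median of -0.57. UQCRC2, a core subunit related to mitochondrial processing peptidases (chromosome 16, 21952660 to 21983660, plus strand), went from 69.4, 70.0 and 70.5 CPM to 43.6, 45.0 and 43.5 CPM. Its log2 fold change was -0.67 ± 0.0391 (adjusted p = 2.87e-13) and its replicates differed by little in either group. The partner core subunit UQCRC1, at 135, 134 and 137 CPM in normoxia and 99, 97.6 and 103 CPM in hypoxia, fell by 0.44 (adjusted p = 1.68e-10). UQCRFS1 is the Rieske iron-sulfur protein that hands electrons to cytochrome c1. It went from 36, 36.2 and 36.4 CPM to 22.4, 25.4 and 24 CPM, a fall of 0.60 (adjusted p = 1.92e-10), again without overlap. The small subunits UQCR10, UQCR11, UQCRB and UQCRQ fell by 0.63, 0.53, 0.41 and 0.57. The hinge protein UQCRH, which helps cytochrome c to dock, fell by 0.57 ± 0.105 (adjusted p = 4.51e-05).

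In complex IV 11 of 12 tested genes fell, with a median of -0.50. COX7C, a small subunit (chromosome 5, 86617904 to 86620962, plus strand), stood at 621, 683 and 610 CPM in normoxia and at 394, 361 and 419 CPM in hypoxia. This was a log2 fold change of -0.70 ± 0.051 (adjusted p = 1.41e-11), with no overlap. COX7A2L, which joins complexes III and IV into supercomplexes, went from 55.9, 53 and 54.8 CPM to 31.9, 35 and 35.5 CPM, a fall of 0.68 ± 0.0451 (adjusted p = 2.6e-12). Its relative COX7A2 went from 127, 136 and 133 CPM to 90.3, 89.2 and 95 CPM, a fall of 0.52 ± 0.0402 (adjusted p = 3.92e-11). All 3 hypoxic values of both genes were below the normoxic ones. COX4I1, the isoform of subunit IV that predominates in well-oxygenated tissue (chromosome 16, 85798633 to 85807044, plus strand), went from 1100, 981 and 1120 CPM to 758, 727 and 772 CPM, a log2 fold change of -0.50 ± 0.0448 (adjusted p = 5.86e-10). COX5B, which binds zinc on the matrix side, moved least among the members of complex IV that passed, by -0.25 ± 0.0499 (adjusted p = 0.000126). COX5A, COX6A1, COX6B1, COX6C, COX7B and COX7B2 fell by 0.40, 0.46, 0.52, 0.50, 0.45 and 0.69, respectively. COX8A, a small subunit, was listed at 3.04 and 2.36 CPM and did not pass the test (-0.33 ± 0.158, adjusted p = 0.0685).

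Complex V held the largest fall of all members. ATP5G1, 1 of the 3 genes for the c ring (chromosome 17, 48892765 to 48895871, plus strand; ATP5MC1 in current naming), went from 57.4, 54.8 and 57.6 CPM to 31.5, 29.6 and 29 CPM. The log2 fold change was -0.92 ± 0.0436 (adjusted p = 6.94e-15), with a wide gap between the groups. ATP5G2 and ATP5G3 encode the same mature protein. ATP5G2 went from 52.4, 50.5 and 53 CPM to 32.8, 32.3 and 31 CPM and fell by 0.70. ATP5G3 went from 48.1, 50.2 and 50.2 CPM to 32.2, 32 and 33 CPM and fell by 0.61. Thus the c ring genes were all lower in each hypoxia library. ATP5F1, the b subunit of the peripheral stalk that keeps the head from turning, went from 256, 253 and 235 CPM to 139, 142 and 147 CPM and fell by 0.79 ± 0.0425 (adjusted p = 5.73e-14). ATP5A1 and ATP5B, the alpha and beta subunits that form the catalytic sites of the head, fell by 0.71 ± 0.0351 and 0.72 ± 0.0452 (adjusted p = 1.19e-14 and 9.9e-13). The central stalk genes ATP5C1, ATP5D and ATP5E fell by 0.59, 0.42 and 0.42, and the other peripheral stalk genes ATP5H, ATP5J and ATP5O by 0.56, 0.46 and 0.69. The membrane subunits e, f and g, which shape the dimer and the cristae, had the smallest falls of the complex, with ATP5I at -0.29, ATP5J2 at -0.38 and ATP5L at -0.42. Differences between complexes or between parts of a complex were not tested.

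ATP5S was the exception among the members. It encodes coupling factor B, a regulatory factor that is not a structural subunit. It stood at 2.69, 4.07 and 2.55 CPM in normoxia shControl and at 3.51, 4.01 and 3.99 CPM in hypoxia shControl, so the groups overlapped. The log2 fold change was 0.37 ± 0.136 (adjusted p = 0.0198). The call was lost in 7 of 16 alternative settings, where adjusted p ranged from 0.000983 to 0.351, for example without normoxia shControl replicate 1 (0.29, adjusted p = 0.114) or replicate 3 (0.24, adjusted p = 0.182). The fall of ATP5I (adjusted p = 0.0363) was lost in 8 of 16.

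**Figure D2:**
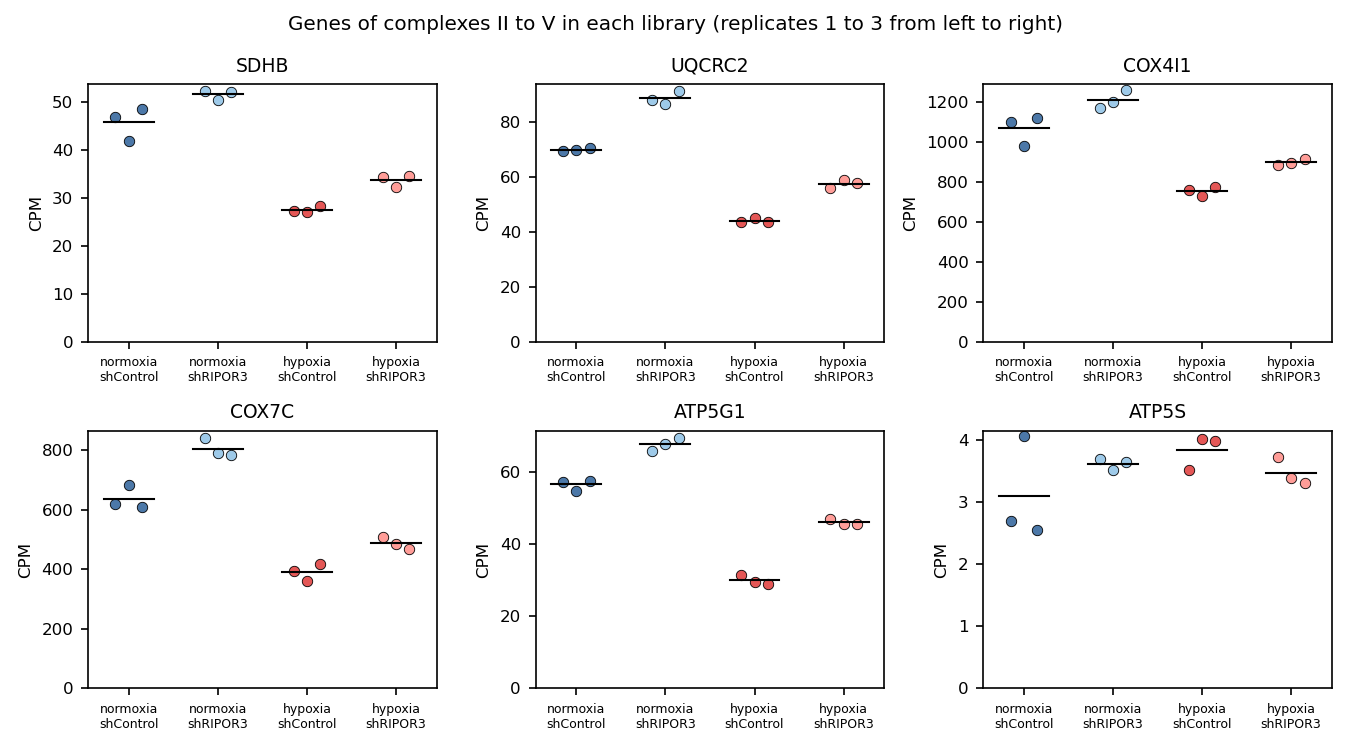
Levels of 6 members in each of the 12 libraries in CPM ( vertical axes from 0); points are libraries in replicate order and lines are group means. SDHB, UQCRC2, COX4I1, COX7C and ATP5G1 are lower in all hypoxia libraries than in the normoxia libraries of the same hairpin, while ATP5S overlaps.

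The same comparison in cells with the RIPOR3 hairpin set the normoxia shRIPOR3 libraries against the hypoxia shRIPOR3 libraries. Scaling, filter and spread were taken from the fit over all groups together. The standard errors and p-values are therefore not independent of those with the control hairpin. Of 41 tested members 36 fell, none rose and 5 did not pass (SDHA, COX8A, ATP5D, ATP5I and ATP5S), with a median of -0.46. Over all genes 30.4% were called lower and 25.2% higher, and among those over 100 CPM 59.3% lower. The count of 0 higher (edgeR) was also 0 at an unadjusted p under 0.05 and with DESeq2. The libraries did not overlap in 34 members, all lower in hypoxia, against 32.6% of all genes. All 36 had also fallen with the control hairpin, which means that 36 of the 38 members called lower with the control hairpin were called with both.

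The change was larger with the control hairpin in 33 of 41 members. The same count over all genes was not taken. Over all genes 32.4% were called lower and 32.4% higher with the control hairpin, against 30.4% and 25.2% with the RIPOR3 hairpin. The count is thus not shown to be particular to the members. With the RIPOR3 hairpin COX6C had the largest fall, 0.92, which was 0.64 without 1 low library described further on. COX7C, at 841, 790 and 786 CPM in normoxia and 509, 486 and 468 CPM in hypoxia, fell by 0.72 ± 0.0507 (adjusted p = 1.84e-11). UQCRC2 went from 88.2, 86.6 and 91.3 CPM to 56.0, 58.9 and 57.8 CPM, a fall of 0.63 ± 0.037 (adjusted p = 9.71e-13). Neither gene overlapped between oxygen levels. SDHB fell by 0.61, COX4I1 by 0.43, COX7A2L by 0.59 and ATP5F1 by 0.60. ATP5G1, the member with the largest fall under the control hairpin, went from 65.9, 67.9 and 69.4 CPM to 47.0, 45.5 and 45.7 CPM, a fall of 0.56 ± 0.0404 (adjusted p = 3.2e-11). The c ring genes together, at -0.56, -0.48 and -0.44 for ATP5G1, ATP5G2 and ATP5G3, again all fell. ATP5D, the delta subunit of the central stalk, was at 17.6, 15.9 and 16.2 CPM in normoxia and 14.8, 14.3 and 16.0 CPM in hypoxia and did not pass the test (-0.13 ± 0.0669, adjusted p = 0.116).

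Across the 41 tested members, the log2 fold change was higher at higher GC content of the transcript, with a Spearman coefficient of 0.608 in shRIPOR3 cells and 0.29 in shControl cells. The coefficient against the level in CPM was -0.405 and -0.253. These describe genes within the same libraries, which also differed in depth between oxygen levels, and the part of base composition in the falls was not tested.

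**Figure D3:**
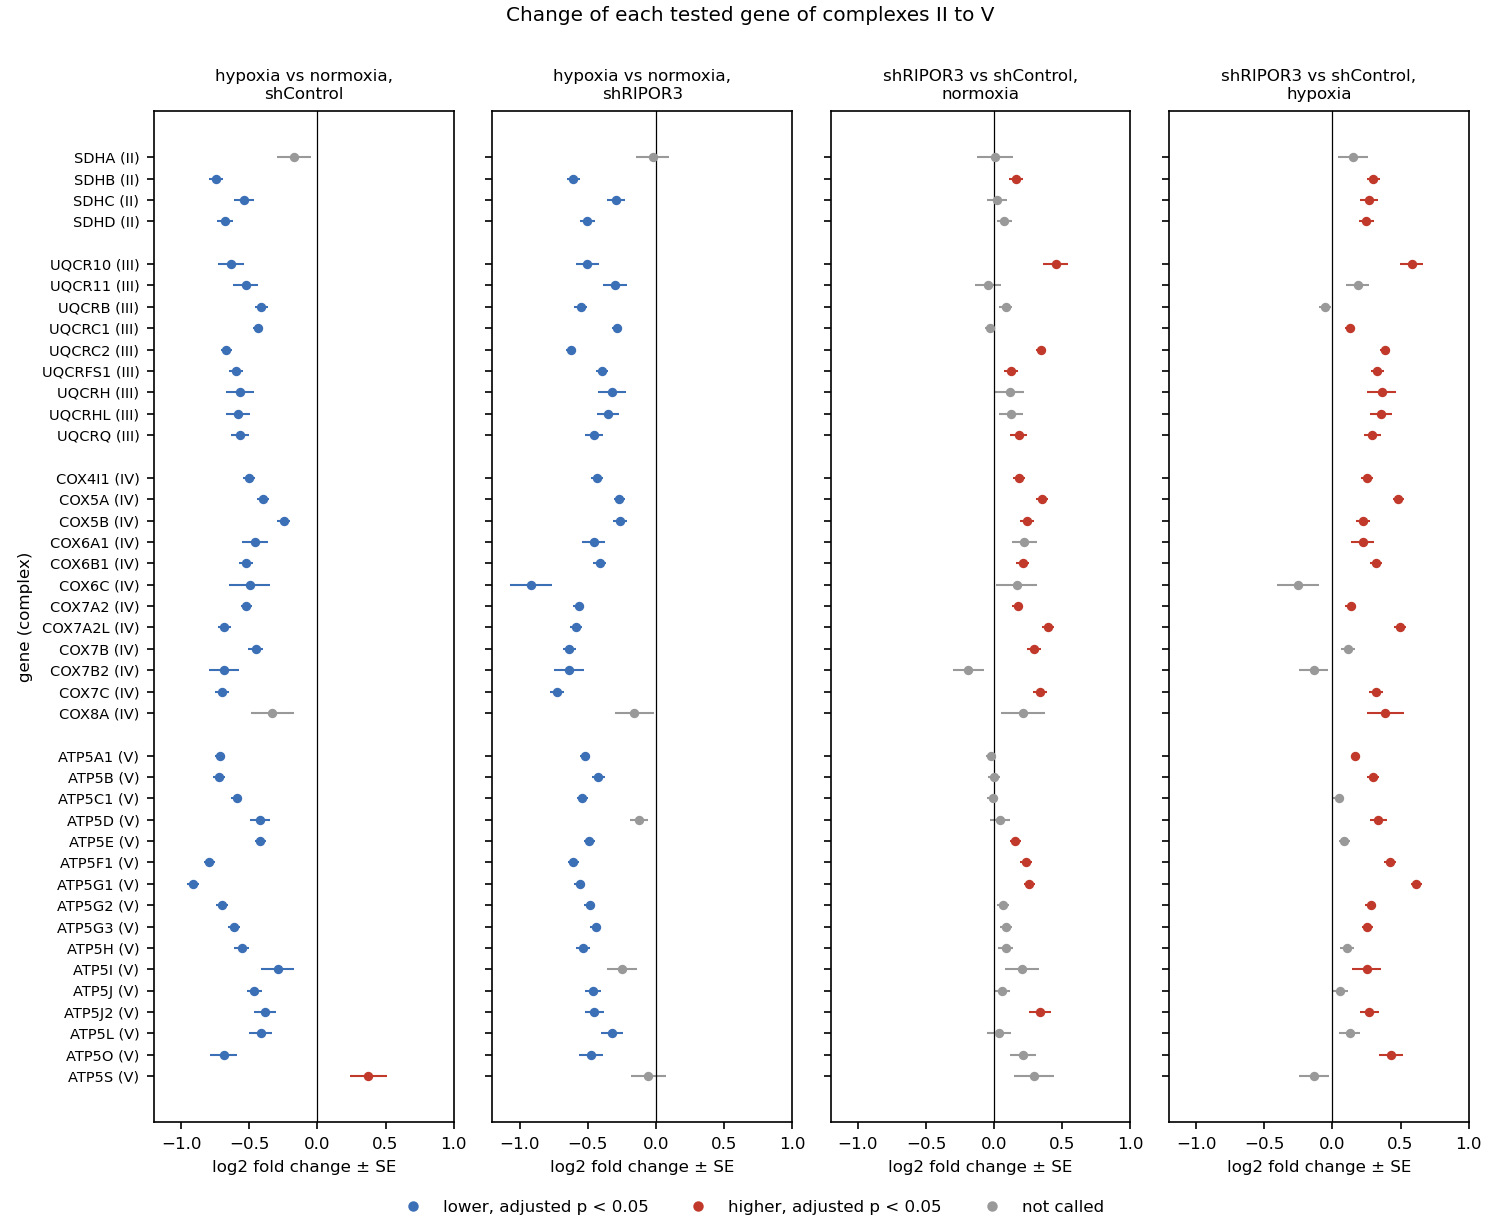
Log2 fold change (horizontal axes) with its SE for each of the 41 tested members in the 4 comparisons. In hypoxia 38 of 41 members fell with the control hairpin and 36 of 41 with the RIPOR3 hairpin, and on knockdown 17 of 41 rose in normoxia and 29 of 41 in hypoxia.

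The knockdown comparisons asked how these genes differed between cells with the RIPOR3 hairpin and cells with the control hairpin at each oxygen level. All shRIPOR3 libraries were labelled with the same RIPOR3 hairpin. Loss of RIPOR3 can thus not be told apart from off-target effects of that hairpin or from differences between the lines. Neither was tested, and "on knockdown" means only this difference between hairpins throughout. In normoxia 17 of 41 members rose, none fell and 24 did not pass, and the median change was 0.16. Over all genes 25.1% were called higher and 20.6% lower, and among those over 100 CPM 36.8% higher and 29.4% lower, beside 41.5% of the members called higher. The count of 0 lower (edgeR) was also 0 at an unadjusted p under 0.05 and with DESeq2, here and in hypoxia. The libraries of 21 members did not overlap, all higher on knockdown, against 28.2% of all genes higher without overlap. By complex the genes that rose were 1 of 4 in complex II, 4 of 9 in complex III, 8 of 12 in complex IV and 4 of 16 in complex V.

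Complex IV held 8 of the 17 genes that rose. COX7A2L, the supercomplex factor, went from 55.9, 53 and 54.8 CPM in normoxia shControl to 69.8, 72.6 and 73.4 CPM in normoxia shRIPOR3, a rise of 0.40 ± 0.0442 on the log2 scale (adjusted p = 7.83e-08). COX5A, a nuclear subunit on the matrix side, rose by 0.35 ± 0.0415 (adjusted p = 2.13e-07), and COX7C by 0.34 ± 0.0508 (adjusted p = 6.98e-06). COX4I1, COX5B, COX6B1, COX7A2 and COX7B rose by 0.18, 0.24, 0.21, 0.17 and 0.29. In complex III, UQCR10, a small subunit near cytochrome c1, rose most of all members, from 9.14, 7.65 and 8.08 CPM to 11.4, 10.3 and 12.4 CPM (0.45 ± 0.0921, adjusted p = 0.000283). UQCRC2 rose by 0.34 ± 0.0386 (adjusted p = 9.82e-08) and UQCRQ by 0.18. The call of UQCRFS1 (0.12, adjusted p = 0.046) was lost in 16 of 16 alternatives, that of UQCRQ in 6 of 16 (adjusted p up to 0.126) and that of SDHB in 3 of 16. The head subunits ATP5A1 and ATP5B had changes of -0.02 ± 0.035 and -0.00 ± 0.045 (adjusted p = 0.594 and 0.988). In complex V the genes that rose were ATP5E, ATP5F1, ATP5G1 and ATP5J2, by 0.15, 0.23, 0.26 and 0.34.

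In hypoxia 29 of 41 members rose on knockdown, none fell and 12 did not pass, with a median of 0.26. Over all genes 30.7% were called higher and 31.2% lower, and among those over 100 CPM 46.7% higher, beside 70.7% of the members. The libraries did not overlap in 32 members that were higher on knockdown, against 32.6% of all genes, and in COX7B2, which was lower (-0.14 ± 0.107, adjusted p = 0.27). Of the members 15 rose at both oxygen levels, COX7B and ATP5E rose in normoxia alone by this threshold, and 14 passed in hypoxia alone. Those 14 are not shown to differ between oxygen levels by this count, since that needs the interaction below.

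ATP5G1 had the largest rise, from 31.5, 29.6 and 29 CPM in hypoxia shControl to 47.0, 45.5 and 45.7 CPM in hypoxia shRIPOR3. This was 0.62 ± 0.0414 on the log2 scale (adjusted p = 5.19e-12), and the groups were far apart. The hypoxia shControl libraries also enter the fall with the control hairpin and the interaction, so these results of ATP5G1 are not independent. UQCR10 rose by 0.58 ± 0.0854 (adjusted p = 2.46e-06), COX7A2L by 0.49 ± 0.0426 (adjusted p = 4.32e-10) and COX5A by 0.48 ± 0.0395 (adjusted p = 1.78e-10). COX5A stood at 71.5, 75.9 and 70.7 CPM in hypoxia shControl and at 101, 100 and 103 CPM in hypoxia shRIPOR3, and the latter values overlapped the 91.7, 102 and 95.1 CPM of normoxia shControl. In complex II, SDHB, SDHC and SDHD rose by 0.30, 0.27 and 0.25. The head subunits ATP5A1 and ATP5B rose by 0.17 and 0.30, ATP5D of the central stalk by 0.34, and ATP5F1 and ATP5O of the peripheral stalk by 0.42 and 0.43. COX8A, at 2.12, 2.41 and 2.57 CPM in hypoxia shControl and 3.21, 2.6 and 3.33 CPM in hypoxia shRIPOR3, rose by 0.39 ± 0.135 (adjusted p = 0.0156). This call was lost in 5 of 16 alternatives (adjusted p up to 0.163), and those of ATP5I, COX6A1 and UQCRC1 in 7, 4 and 1 of 16. The genes that did not pass included ATP5C1 (0.05), ATP5J (0.06), ATP5H (0.11) and UQCRB (-0.05).

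The interaction asked whether the response to hypoxia differed between the hairpins. It was positive and past the threshold in 9 of 41 members and negative in none, with a median of 0.11, so that in these 9 the fall in hypoxia was smaller with the RIPOR3 hairpin. Over all genes 10.9% were called positive and 12.3% negative, but among the genes over 100 CPM 24.6% were called positive, beside 22% of the members. These sets are unlike, since members were counted at all levels. ATP5G1, ATP5G2, ATP5G3, ATP5D and UQCRFS1 among the 9 lay under 100 CPM in every group. The count is thus not shown to be particular to the members. The count of 0 negative (edgeR) was also 0 with DESeq2, while UQCRB, COX7B and ATP5S were negative at an unadjusted p under 0.05. Of the 9 genes 7 belong to complex V and 2, UQCRC1 and UQCRFS1, to complex III; no gene of complexes II or IV passed, where SDHC, SDHD and COX5A were positive at an unadjusted p under 0.05. A difference between the complexes was not tested.

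In ATP5G1 the interaction was 0.36 ± 0.0593 (adjusted p = 0.000109), the difference between the falls of 0.92 and 0.56 given above. ATP5B, the catalytic subunit, stood at 456, 452 and 457 CPM in normoxia shControl, 477, 433 and 454 in normoxia shRIPOR3, 292, 268 and 268 in hypoxia shControl and 346, 318 and 354 in hypoxia shRIPOR3. Its normoxia groups overlapped and its hypoxia groups did not, and the interaction was 0.30 ± 0.0634 (adjusted p = 0.00126). ATP5A1 was at 319, 330 and 309 CPM, 314 in each of the 3 libraries, 191, 196 and 197 CPM, and 218, 218 and 220 CPM in the same order, with an interaction of 0.19 ± 0.0493 (adjusted p = 0.00592). The alpha subunit therefore showed the same order of groups as the beta subunit. All 3 c ring genes passed, with 0.22 ± 0.0577 for ATP5G2 and 0.17 ± 0.0609 for ATP5G3 (adjusted p = 0.00791 and 0.0481).

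ATP5A1, ATP5B and ATP5G1 kept this call in all 21 alternative settings, and ATP5G2 in 20 of 21. The other 5 lost it in 5 (ATP5D), 6 (ATP5F1), 7 (UQCRC1), 10 (ATP5G3) or 10 (UQCRFS1) of 21. Without normoxia shControl replicate 3, or without hypoxia shControl replicate 1, 5 members were called in place of 9.

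**Figure D4:**
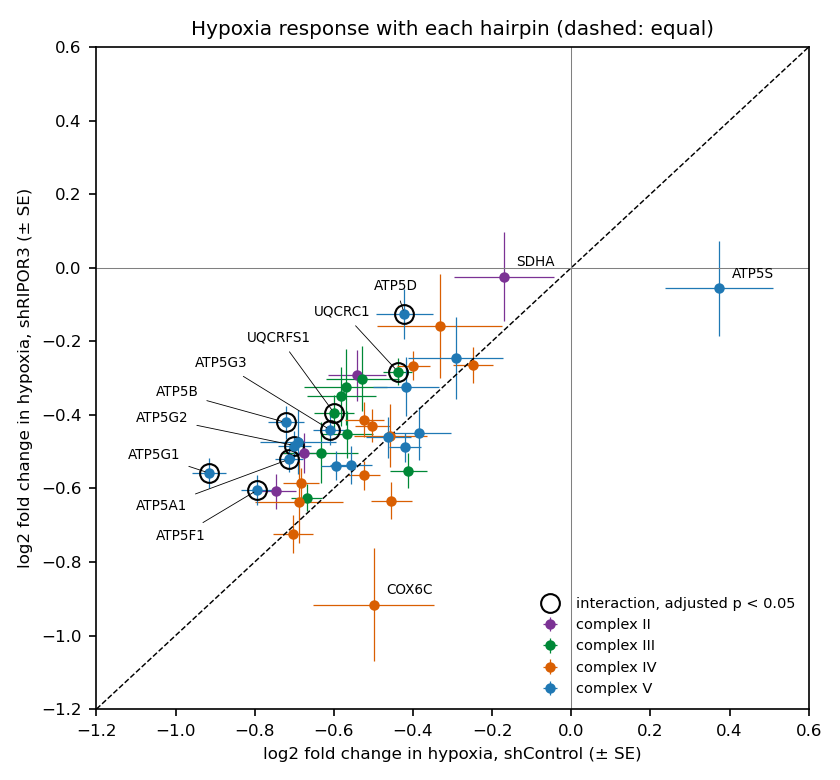
Log2 fold change in hypoxia with the control hairpin (horizontal axis) against that with the RIPOR3 hairpin (vertical axis) for the 41 tested members, with SE bars and complexes in colour. The 9 circled members, past the threshold for the interaction, lie above the dashed line of equal change.

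A pair of members had an uneven library in a group that was otherwise even. Among genes over 10 CPM, a coefficient of variation over 0.2 was found in 0.352% of genes in normoxia shRIPOR3, where UQCRH was the only member, and in 0.145% in hypoxia shRIPOR3, where COX6C was. UQCRH stood at 239, 387 and 397 CPM in normoxia shRIPOR3, with replicate 1 low, and at 311, 346 and 296 CPM in normoxia shControl. Its change on knockdown in normoxia was 0.11 ± 0.105 (adjusted p = 0.399), and 0.31 (adjusted p = 2.91e-05) without that library. UQCRHL, a near-identical copy of UQCRH, at 19.0, 24.7 and 26.2 CPM in the same libraries, moved from 0.12 (adjusted p = 0.263) to 0.23 (adjusted p = 0.0178). How reads that fit both copies were counted was not given, so UQCRHL is not a separate check on UQCRH. The fall of UQCRH in hypoxia with the RIPOR3 hairpin was 0.32 ± 0.104 (adjusted p = 0.0104) and 0.52 without replicate 1, and it did not pass without replicate 2 (adjusted p = 0.0941) or replicate 3 (adjusted p = 0.122) of normoxia shRIPOR3.

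COX6C, a subunit of complex IV, stood at 452, 439 and 214 CPM in hypoxia shRIPOR3, with replicate 3 low, and at 444, 405 and 465 CPM in hypoxia shControl. The fall in hypoxia with the RIPOR3 hairpin was 0.92 ± 0.153 (adjusted p = 1.64e-05) with that library and 0.64 (adjusted p = 4.96e-08) without it. Its change on knockdown in hypoxia was -0.25 ± 0.152 (adjusted p = 0.154), and 0.03 (adjusted p = 0.766) without replicate 3. Without replicate 1 or 2 of the same group it was called lower, at -0.43 (adjusted p = 0.0236) and -0.39 (adjusted p = 0.0421). With COX6C and UQCRH left out of the sums over all members, the total was 32.6% and 29.1% lower in hypoxia. It was 12% and 17.9% higher on knockdown.

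**Figure D5:**
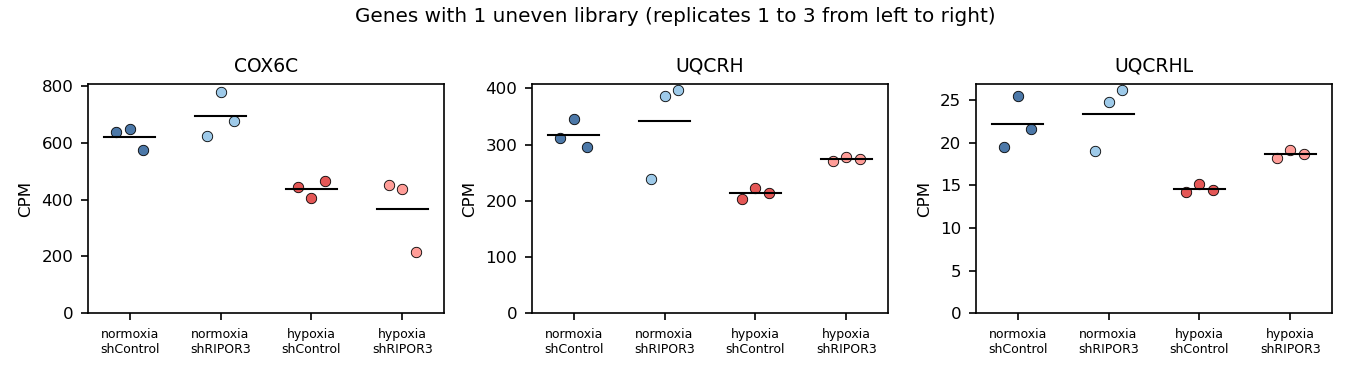
Levels of COX6C, UQCRH and UQCRHL in each library in CPM ( vertical axes from 0); points are libraries in replicate order and lines are group means. COX6C is low in the third hypoxia shRIPOR3 library (214 CPM) and UQCRH in the first normoxia shRIPOR3 library (239 CPM).

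The 4 structural genes in the table that the symbol rule missed, from a list written with earlier results of these data known, moved the same way as most members. CYC1, the cytochrome c1 subunit of complex III, CYCS, the mobile carrier cytochrome c, NDUFA4, a complex IV subunit, and USMG5, a small subunit of complex V, all fell in hypoxia with both hairpins and all rose on knockdown in hypoxia, while 3 of 4 rose in normoxia. Over all genes 32.4% and 30.4% were called lower in hypoxia with the control and the RIPOR3 hairpin. On knockdown 30.7% were called higher in hypoxia and 25.1% in normoxia. CYC1 stood at 143, 136 and 142 CPM in normoxia shControl, 174, 168 and 170 in normoxia shRIPOR3, 83.7, 81.9 and 83 in hypoxia shControl and 130, 121 and 131 in hypoxia shRIPOR3. Its interaction was 0.34 ± 0.0537 (adjusted p = 5.22e-05) and that of CYCS 0.24 ± 0.0611 (adjusted p = 0.00599).

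Assembly factors were mixed. Of 21 tested genes for complex IV assembly and copper delivery, 12 fell and 3 rose in hypoxia with the control hairpin, 13 fell and 3 rose with the RIPOR3 hairpin, 9 rose and 2 fell on knockdown in normoxia, and 13 rose and 5 fell on knockdown in hypoxia. Over all genes 32.4% were called lower and 32.4% higher in hypoxia with the control hairpin, and 30.4% and 25.2% with the RIPOR3 hairpin. On knockdown 25.1% were called higher and 20.6% lower in normoxia, and 30.7% and 31.2% in hypoxia. The genes that rose in hypoxia were COX15, COX18 and COA1 with the control hairpin and COX15, COX18 and COX20 with the RIPOR3 hairpin, and those that fell on knockdown were COX17 and SURF1 at both oxygen levels and COA1, COA5 and CMC1 in hypoxia. COX17, the chaperone that carries copper to complex IV, moved the other way on knockdown from the subunits that rose. It stood at 90.4, 104 and 94.6 CPM in normoxia shControl and at 42.5, 44 and 43.4 CPM in normoxia shRIPOR3 (-1.15 ± 0.047, adjusted p = 2.24e-15), and at 66.9, 68.3 and 70.4 CPM in hypoxia shControl and 29.2, 29.1 and 29.6 CPM in hypoxia shRIPOR3 (-1.23 ± 0.0443, adjusted p = 5.92e-17). No library of one hairpin overlapped the other, and COX17 fell by more than 2-fold on knockdown at both oxygen levels. COA7, another assembly factor, rose by 0.31 and 0.78 on knockdown, and LRPPRC, which stabilises mitochondrial messenger RNA, by 0.42 and 0.66. COA1, an early assembly factor, was the only gene of this list with a negative interaction (-0.37 ± 0.064, adjusted p = 0.000158), and 6 were positive. Over all genes 12.3% were called negative and 10.9% positive.

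Among factors for the other complexes, 3 of 4 for complex II, 4 of 6 for complex III and 2 of 5 for complex V fell in hypoxia with the control hairpin and none rose, beside 32.4% of all genes called lower. On knockdown in hypoxia 3 of 4, 3 of 6 and 2 of 5 rose, beside 30.7% of all genes, and SDHAF4 of complex II fell (-0.47 ± 0.116, adjusted p = 0.00104). BCS1L, which inserts the Rieske protein UQCRFS1 into complex III, went from 28.5 ± 1.45 to 18.3 ± 0.114 CPM in hypoxia with the control hairpin and from 36.6 ± 1.71 to 34.4 ± 1.01 CPM with the RIPOR3 hairpin. The fall was 0.64 in the first and the change was -0.08 ± 0.0473 (adjusted p = 0.141) in the second, with an interaction of 0.56 ± 0.071 (adjusted p = 4.14e-06).

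Of 12 regulators of mitochondrial biogenesis, 8 fell and 2 rose in hypoxia with the control hairpin, and 8 rose and 2 fell on knockdown in hypoxia. Over all genes 32.4% were called lower and 32.4% higher in the first comparison, and 30.7% higher and 31.2% lower in the second. PPARGC1A, a coactivator of respiratory genes, was low at 3.73 ± 0.444 CPM in normoxia shControl and 2.41 ± 0.065 in hypoxia shControl, and it rose on knockdown by 0.51 in normoxia and 0.96 in hypoxia (adjusted p = 0.000836 and 1.83e-08). Of the factors whose letters were searched in the promoters, NRF1 fell by 0.43 in hypoxia with the control hairpin and by 0.23 with the RIPOR3 hairpin, GABPA fell by 0.16 and 0.24 (adjusted p = 0.0427 and 0.00378), and YY1 rose by 0.58 and 0.40. PPARGC1B, a relative of PPARGC1A, also rose in hypoxia, by 0.49 and 0.57, and TFB1M and YY1 fell on knockdown in hypoxia, by 0.47 and 0.10. TFAM, which packages and transcribes mitochondrial DNA, fell by 0.49 and 0.23 and had an interaction of 0.26 ± 0.0655 (adjusted p = 0.00515). Among 5 tested hypoxia-linked mitochondrial genes, 3 rose in hypoxia with the control hairpin, beside 32.4% of all genes called higher. BNIP3, a mitophagy receptor, went from 137 ± 4.93 to 545 ± 6.88 CPM, and PDK1, which limits pyruvate entry to the mitochondrion, from 7.56 ± 0.829 to 21.6 ± 0.277 CPM. On knockdown in hypoxia both fell, to 334 ± 13.7 CPM for BNIP3 and 14.9 ± 0.855 CPM for PDK1 (adjusted p = 3.6e-13 and 2.16e-08). LONP1, the matrix protease, rose by 0.22, and HIGD1A and ISCU fell by 0.54 and 0.58.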

How the data were processed

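The members and the gene lists were chosen with earlier results of these data known. Messenger RNA of 12 libraries, 3 per group, was sequenced from stranded libraries, per the labels' protocols. The authors deposited whole-number read counts per gene symbol; per the submitters' processing notes, which give no order, the build was GRCh38 and the tools were featureCounts, STAR (2.5.3a) and fastp (0.23.4), and the annotation and the strand setting were not given in the sources used here. Counts were scaled by TMM, filtered with filterByExpr and fitted over all 4 groups with edgeR 4.0.16 (quasi-likelihood test, R 4.3.3). Contrasts were Benjamini-Hochberg adjusted over 15648 genes, called at adjusted p under 0.05, and the SE is the unshrunk contrast divided by the square root of F. Positive values are higher in hypoxia or on knockdown, and the interaction is the shRIPOR3 response minus the shControl response. The fit was tested on simulated counts, where of 100 genes changed by 1.25-fold it recovered 83% in each hypoxia comparison, 75% and 85% on knockdown in normoxia and hypoxia and 53% in the interaction, and of 100 changed by 2-fold 100% in each. The changed genes were drawn from those over 5 CPM, with the spread typical of their level. These rates may not hold for members with lower levels or uneven libraries. The simulation also changed few genes, 100 at each size. In the data 32.4% of genes were called lower and 32.4% higher in hypoxia with the control hairpin, so the rates may differ there. Replicate pairs differed by 2.65 to 6.18 times counting noise (chi-square per degree of freedom), so none was counted as a duplicate. Symbols were matched to GENCODE 29 (GRCh38) for positions and transcript lengths, through RefSeq synonyms, for 44 of 44 members. Genes described in full were the 3 with the smallest adjusted p per complex in hypoxia with the control hairpin, isoform pairs, members moving against the rest, the 5 strongest interactions and members with an uneven library. Alternatives were other scalings (median of ratios, upper quartile, library totals), no filter or 1 CPM in 3 libraries, DESeq2 1.42.0, a threshold of 0.01, a replicate block, fits on the 2 groups of a comparison alone, thinning to 14750734 reads and leaving out each library. No library was left out of the main values.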

Additional observations from a re-analysis of the deposited data

Results flagged for a closer look

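A test of the interaction term found that the response to hypoxia differed between the hairpins in 9 of 41 members (edgeR quasi-likelihood test, adjusted over all genes). These are 22% of the members, beside 10.9% of all genes and 24.6% of the genes over 100 CPM called positive. The last share is of an unlike set, since members were counted at all levels and most lay under 100 CPM. In each of the 9 the fall was smaller with the RIPOR3 hairpin. The differences on the log2 scale were 0.357 for ATP5G1, 0.3 for ATP5B, 0.295 for ATP5D, 0.217 for ATP5G2, 0.205 for UQCRFS1, 0.193 for ATP5A1, 0.189 for ATP5F1, 0.168 for ATP5G3 and 0.156 for UQCRC1. Library depth was higher in hypoxia than in normoxia with both hairpins, and its part in these differences was not tested beyond thinning to equal totals, under which 5 members were called.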

How the results depend on the processing

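No called change was reversed under any alternative listed in the processing. Main counts of members called higher and lower were 1 and 38 (hypoxia, shControl), 0 and 36 (hypoxia, shRIPOR3), 17 and 0 (knockdown, normoxia), 29 and 0 (knockdown, hypoxia) and 9 and 0 (interaction). The single rise, ATP5S, was lost with DESeq2, with the threshold of 0.01 and with thinning, leaving 0. The interaction count was 4 at the threshold of 0.01 and 5 after thinning. With no low-count filter 1 member was called lower on knockdown in normoxia, 1 of the 3 left out of the main fit, and 1, COX6C, negative in the interaction. Leaving out single libraries gave 0 to 1 higher and 37 to 38 lower members in hypoxia with the control hairpin, 0 higher and 35 to 37 lower with the RIPOR3 hairpin, 15 to 18 higher on knockdown in normoxia, and 27 to 31 higher and 0 to 1 lower on knockdown in hypoxia. For the interaction the ranges were 5 to 11 positive and 0 to 1 negative; the negative member was ATP5S, COX7B or COX6C, without normoxia shControl replicate 2, normoxia shControl replicate 3 or hypoxia shRIPOR3 replicate 1. The cause of these changes was not tested, beyond fewer samples or genes in the fit. Library totals without a factor moved the median of all genes by 0.110 and 0.123 in the hypoxia comparisons and the share of called genes that were higher to 61.6% and 63.4%; the members' medians were then -0.43 and -0.33. No pairing by replicate number was seen: deviations of 18 same-numbered pairs had a median correlation of 0.000471 (-0.0182 to 0.0265), and 5 of 12 libraries correlated best with their own number. These values cannot show whether same-numbered libraries were grown or prepared together. With the replicate block 38 and 36 members fell in hypoxia, 17 and 30 rose on knockdown and 8 passed in the interaction. In hypoxia with the control hairpin SDHA, COX8A and ATP5S, all under 5 CPM, and COX6C had the largest standard errors of the members (0.126 to 0.158). Small changes in the first 3 were not detectable at this depth, while COX6C had at least 9238 reads in each library and replicates that differed more.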
